A study of Mus musculus with 18 samples.

Results

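The genes described here encode 10 proteins of the apical membrane and of the vesicle traffic that delivers it: Podxl, Prom1, Ezr, Slc9a3r1, Slc9a3r2, Cgn, Sytl2, Rab27b, Rab11a and Rab3ip. They were chosen by name, as the rows of a count table whose Ensembl identifiers match these symbols, and they are 10 of the 49671 genes in that table. Mouse embryonic stem (ES) cells, kept beforehand in 2i/Lif, had been embedded in Matrigel, an extracellular matrix gel in which ES cells can form epithelial rosettes around a lumen, and their poly(A) RNA was sequenced. Wild-type E14 cells (labelled strain 12910la, passage 20) were cultured for 48 h in 4 groups: DMSO, the solvent control; CH, which is 3 µM of the Gsk3 inhibitor CHIR99021; 2i, which is 3 µM CHIR99021 with 0.4 µM of the Mek inhibitor PD0325901; and Fgf2/Activin, which is 12 ng/ml Fgf2 with 20 ng/ml Activin A. Esrrb fl/fl cells (passage 25, strain field Acr-EGFP transgenic mice) that carry a tamoxifen-inducible Cre formed the other 2 groups, both grown for 24 h in 3 µM CHIR99021. One of them, Esrrb 4OHT, had received 4-hydroxytamoxifen for 1 day before the 3D culture and the other, Esrrb NT, had not.

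Each of the 6 groups had 3 libraries, with 25388139 to 37158661 counted reads in the wild-type libraries and 19915222 to 20140699 in the Esrrb libraries. Nothing in the labels says that replicates were separate cultures, so p-values measure the spread between these libraries. In all 6 groups replicate 1 stood apart: the mean chi-square per gene was 1.46 to 8.57 between replicates 2 and 3 and 11.8 to 65.9 between replicate 1 and either of them. The 8 pluripotency markers, among them Pou5f1 and Sox2, were all above 1 CPM (read counts scaled to a common library size) in every group. Their levels were not alike. Sox2 was higher in CH (326 to 382 CPM) than in DMSO (79.4 to 94.1), while Utf1 was lower (158 to 294 against 670 to 693.5). The sum of the 8 was 3660 to 3719 CPM in Esrrb NT and 2200 to 2463 in Esrrb 4OHT, where each of them was lower. Esrrb itself had 1211 to 1333 counts in the Esrrb 4OHT libraries and 2109 to 2680 in the Esrrb NT libraries (log2 fold change -0.99 ± 0.10 SE, edgeR adjusted p = 7.44e-05), so the treated libraries still held Esrrb reads. These counts cover the whole gene and not the floxed part alone, so they do not measure intact transcript. The paper shows by blot that the treatment depleted the Esrrb protein. Summed over the 8 markers of mesendoderm, the level was 8.98 to 14.1 CPM in DMSO, 13.6 to 23.5 in Fgf2/Activin, 470.5 to 710.2 in CH, 87.3 to 120.5 in 2i, 77.4 to 98.2 in Esrrb NT and 439 to 568 in Esrrb 4OHT. Of these markers 5 of 8 passed 1 CPM in CH and in Esrrb 4OHT, against 1 of 8 in DMSO and 3 of 8 in 2i and in Esrrb NT, and Cer1 was at 0 in Fgf2/Activin and 2i. T (brachyury) made up most of that sum in CH, with 442 to 672 CPM. Eomes, which is in this list and in that of trophectoderm, made up most of it in DMSO. It measured 8.37 to 13.2 CPM in DMSO and 0.96 to 3.73 in CH, so it fell while the sum rose. Trophectoderm markers did not move as one list: Cdx2 went from at most 0.15 CPM in DMSO to between 46.0 and 92.9 in CH and Tfap2a from at most 1.53 to at least 25.6, while Krt7 (at least 8.16 and at most 2.76), Ascl2 (at least 10.3 and at most 6.78) and Eomes (at least 8.37 and at most 3.73) were lower in every CH library than in any DMSO library. Their summed level ran from 33.1 to 48.6 CPM in DMSO and from 85.1 to 128.3 in CH, and that of primitive and visceral endoderm markers from 10.6 to 12.3 in DMSO and from 3.81 to 4.82 in CH, with Ttr at 0 in every library. In the endoderm list Dab2, Sox7, Sox17, Amn and Cubn were lower in every CH library than in any DMSO library. Foxa2 (at most 0.42 CPM in DMSO and at least 0.65 in CH) and Pdgfra (at most 0.28 and at least 0.45) were higher. The 8 fibroblast markers summed to between 22.0 and 55.1 CPM in DMSO, 7.79 and 13.5 in CH and 4.73 and 4.96 in 2i. Thy1 held most of that sum in DMSO (475 to 1797 counts), while Pdgfrb overlapped between DMSO (63 to 164 counts) and CH (51 to 199). The part of these other lineages in the results on the apical genes was not tested, and in bulk RNA fewer cells of a type and less RNA per cell cannot be told apart.

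An epithelial cell opens a lumen by sending vesicles with apical cargo to a shared membrane patch between neighbours. Podocalyxin (Podxl), a heavily sialylated and negatively charged transmembrane protein, is the best known cargo. Its cytoplasmic tail binds the PDZ scaffolds NHERF1 (Slc9a3r1) and NHERF2 (Slc9a3r2), which in turn bind ezrin (Ezr), the linker to cortical actin. Rab11a marks the recycling endosome from which the vesicles leave, Rabin8 (Rab3ip) is the exchange factor that turns on Rab8 downstream of it, and Rab27 GTPases with the synaptotagmin-like effector Slp2-a (Sytl2) tether them at the target membrane. Cingulin (Cgn) is a tight junction plaque protein that also helps place the vesicles, and prominin-1 (Prom1) sits on microvilli and other membrane protrusions.

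The end of the Podxl coding sequence is printed because it holds the tail through which podocalyxin meets the NHERF scaffolds. The last 87 bases, stop codon included, are read on the minus strand of GENCODE's GRCm38 transcripts, and the stop codon lies at chr6:31523022-31523024. The 4 codons in capitals are the last before the stop and encode the PDZ-binding end.
Podxl coding end: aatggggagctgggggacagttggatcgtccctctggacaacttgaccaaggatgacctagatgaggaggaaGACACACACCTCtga

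Promoters, defined as the 250 bases before and 50 after a RefSeq start on GRCm38.p6, were held for 7 of the 10 genes, with 9 entries in all. Those of Cgn, Prom1 and Rab11a are shown because these 3 genes were higher in Esrrb 4OHT with an adjusted p under 0.01, Cgn past the fold threshold as well, as described further on. Capitals mark letters found by a search of both strands for 5 motifs: the TCF/LEF core CTTTGA, the oestrogen-related receptor site TCAAGGTCA and its core AAGGTCA, which lies inside it, the grainyhead-like site AACCNGTT, and the E-box CAGGTG read by ZEB and SNAI factors. All 4 entries shown are on the minus strand, and that of Rab11a held no match.
Cgn, chr3:94786433-94786732: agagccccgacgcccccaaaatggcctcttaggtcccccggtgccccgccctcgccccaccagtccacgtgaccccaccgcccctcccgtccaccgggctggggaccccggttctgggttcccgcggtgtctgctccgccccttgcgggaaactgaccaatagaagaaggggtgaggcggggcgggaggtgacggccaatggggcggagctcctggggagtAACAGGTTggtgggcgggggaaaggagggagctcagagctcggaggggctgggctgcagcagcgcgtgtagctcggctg
Prom1 upstream start, chr5:44101687-44101986: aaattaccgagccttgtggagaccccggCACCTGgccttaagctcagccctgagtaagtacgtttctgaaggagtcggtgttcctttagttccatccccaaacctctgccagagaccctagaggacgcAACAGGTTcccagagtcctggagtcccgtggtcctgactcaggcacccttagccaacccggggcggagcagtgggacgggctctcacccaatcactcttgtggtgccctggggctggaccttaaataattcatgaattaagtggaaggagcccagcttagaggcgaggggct
Prom1 downstream start, chr5:44094719-44095018: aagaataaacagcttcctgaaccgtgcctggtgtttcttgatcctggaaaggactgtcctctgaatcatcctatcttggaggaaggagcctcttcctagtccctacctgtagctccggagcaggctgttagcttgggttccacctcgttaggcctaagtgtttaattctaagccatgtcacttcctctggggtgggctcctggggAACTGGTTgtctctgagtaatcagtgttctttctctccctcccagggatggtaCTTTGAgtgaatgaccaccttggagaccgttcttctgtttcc
Rab11a, chr9:64737707-64738006: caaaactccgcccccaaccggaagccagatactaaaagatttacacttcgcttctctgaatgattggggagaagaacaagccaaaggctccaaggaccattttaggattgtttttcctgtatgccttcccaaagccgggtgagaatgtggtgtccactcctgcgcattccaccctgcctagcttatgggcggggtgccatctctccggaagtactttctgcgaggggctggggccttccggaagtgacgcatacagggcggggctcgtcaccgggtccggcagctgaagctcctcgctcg
The grainyhead-like site, bound by a family of transcription factors of epithelia, was in 3 of the 9 entries, 1 of Cgn and 2 of Prom1, and in 2.09% of 32544 promoters of the same length. It lay 29 bases before the start of Cgn and 122 and 45 bases before the starts of Prom1. The 2 receptor motifs were in none of the 9 entries, against 0.412% of promoters for the full site and 4.71% for its core. The TCF/LEF core (16.0% of promoters) and the E-box (20.3%) were each in 2 of the 9 entries, 1 of Prom1 and 1 of Slc9a3r2. A match is a run of letters, and binding there was not measured.

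A gene was counted as changed when edgeR's quasi-likelihood test gave an adjusted p under 0.01 and a log2 fold change beyond 1 in either direction. Gene by gene levels below are in CPM with TMM normalisation over all 18 libraries. CH against DMSO asks what Gsk3 inhibition does in the 3D culture, and 9 of the 10 genes had enough reads to be tested. Podxl and Cgn fell past both thresholds, which is 2 of 9, and none of the 9 rose. Of all genes tested, 17.7% changed in this comparison, 7.51% higher and 10.2% lower. With the adjusted p alone, 5 of the 9 were lower (Podxl, Cgn, Ezr, Slc9a3r2 and Rab11a), against 15.3% of all genes lower and 28.9% in either direction. The median log2 fold change was -0.78 over the 9 genes and -0.0022 over all genes.

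In 2i against Fgf2/Activin, Podxl, Cgn and Sytl2 fell (3 of 9 tested, where 23.5% of all genes changed, 9.13% higher and 14.4% lower). In 2i against CH, which adds Mek inhibition to Gsk3 inhibition, Podxl and Sytl2 fell (2 of 9, where 1.99% of all genes changed and 1.67% fell). In Fgf2/Activin against DMSO, edgeR called 0 of 9 and DESeq2 0, where 1.25% of all genes changed by edgeR; 4 of the 9 had an unadjusted p under 0.05, against 16.9% of all genes. In Esrrb 4OHT against Esrrb NT, 1 of the 8 genes tested changed, Cgn, which rose (16.7% of all genes changed, 12.8% higher and 3.87% lower). By the adjusted p alone 3 more genes there were lower (Ezr, Slc9a3r1 and Rab3ip, against 19.9% of all genes) and 2 more higher (Prom1 and Rab11a, against 24.6%). The median log2 fold changes were -0.46, -0.0013, -0.30 and -0.24 in these 4 comparisons, beside 0.0022, -0.0033, -0.02 and 0.0021 over all genes. All 4 wild-type groups serve in 2 comparisons each, so these are not independent of each other. The 2 groups of 3 libraries did not overlap for 9 of 9 genes in CH against DMSO (49.7% of all genes tested), 8 of 9 in 2i against Fgf2/Activin (62.9%), 5 of 9 in 2i against CH (25.8%), 5 of 9 in Fgf2/Activin against DMSO (24.1%) and 7 of 8 in the Esrrb comparison (65.8%).

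Libraries with the same replicate number varied together, and a fit with the replicate number as a block changed no call at both thresholds for the 10 genes. By adjusted p alone the block moved the count of genes from 5 to 7 of 9 in CH against DMSO, where the share of all genes moved from 28.9% to 45.2%. In 2i against Fgf2/Activin it moved from 6 to 9 of 9 (37.7% and 53.4% of all genes) and in 2i against CH from 3 to 4 (2.83% and 9.18%). In Fgf2/Activin against DMSO it moved from 0 to 3, with Ezr, Slc9a3r2 and Prom1 lower (1.8% and 6.62%). In the Esrrb comparison it stayed at 6 of 8, where 44.5% of all genes passed without the block and 56.3% with it.

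**Figure D1:**
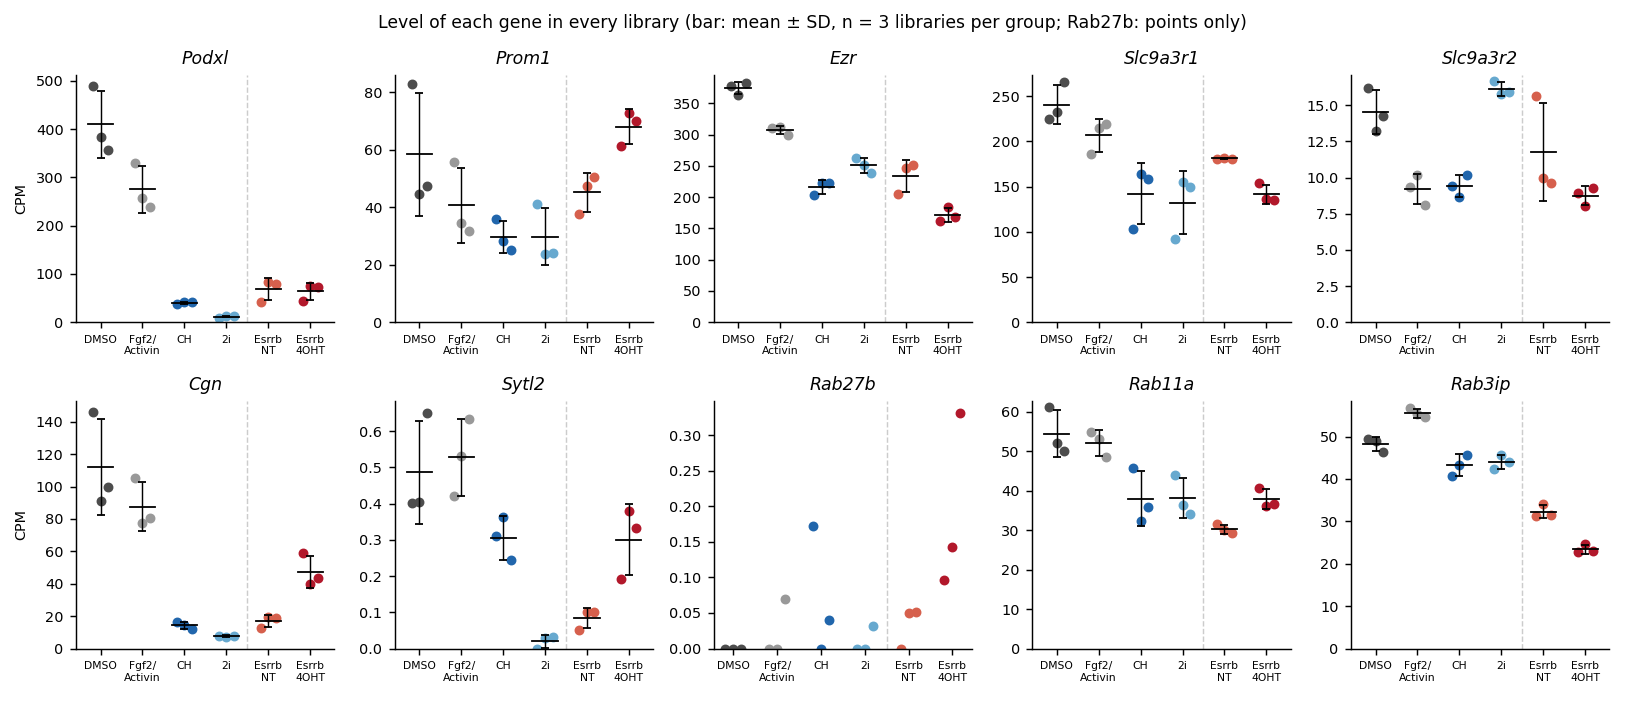
Level of each of the 10 genes in CPM (vertical axis, linear from 0) in all 18 libraries, by group, with the mean and SD of 3 libraries as a bar except for Rab27b, which is shown as points only. Podxl and Cgn were high in DMSO and Fgf2/Activin and low in CH and 2i, and Cgn was higher in Esrrb 4OHT than in Esrrb NT while the Podxl values of those groups overlapped.

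Podxl, the sialomucin of the nascent lumen (ENSMUSG00000025608, chr6:31519488-31563981, minus strand), had the largest change of the 10 genes under CH. It measured 489, 383 and 358 CPM in the DMSO replicates 1, 2 and 3 and 38.1, 42.2 and 41.0 CPM in CH. The groups did not overlap, and the lowest DMSO library was several times above the highest CH library. The fold change was 10.3-fold lower in CH (log2 -3.36 ± 0.17 SE, adjusted p = 1.45e-07). Levels in Fgf2/Activin were 331, 257 and 238 CPM, all below the lowest DMSO library, with a log2 fold change of -0.59 ± 0.15 that missed the threshold (adjusted p = 0.0553, and 0.0167 with the replicate block). In 2i it stood at 9.60, 12.7 and 12.9 CPM, the lowest 3 values of the series. That was 23.5-fold under Fgf2/Activin (log2 -4.56 ± 0.18, adjusted p = 2.17e-08) and 3.44-fold under CH (log2 -1.78 ± 0.16, adjusted p = 0.000203). The 4 wild-type groups were ordered DMSO, Fgf2/Activin, CH and 2i, and no neighbours in that order overlapped.

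In the Esrrb cells Podxl split by replicate and not by treatment. Esrrb NT had 41.9, 83.5 and 78.9 CPM and Esrrb 4OHT 43.3, 76.0 and 72.2 CPM, so replicate 1 was the low one in both groups and the groups overlapped. The log2 fold change was -0.11 ± 0.27 (adjusted p = 0.747), with a 95% interval from -0.72 to 0.50. With the replicate block the interval narrowed to between -0.21 and 0.02 (log2 -0.10, adjusted p = 0.131). Leaving out Esrrb NT replicate 2, Esrrb NT replicate 3 or Esrrb 4OHT replicate 1 turned the sign, to 0.05, 0.0022 and 0.10, and without replicate 1 of both groups it was -0.15 (adjusted p = 0.00585). None of these reaches a log2 fold change of 1. The adjusted p without replicate 1 rests on replicates 2 and 3 alone, which differed little (chi-square per gene 1.46 in Esrrb NT and 2.22 in Esrrb 4OHT).

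The sialomucin relatives of Podxl were scarce. Endoglycan (Podxl2) had at most 0.60 CPM in any library, and Cd34, a surface mucin known from blood progenitors and vessels, had 4.93, 10.9 and 10.2 CPM in DMSO and 0.92, 2.51 and 3.02 in 2i. Cd34 fell 3.84-fold in 2i against Fgf2/Activin (log2 -1.94 ± 0.46, adjusted p = 0.00437), a call that was lost without Fgf2/Activin replicate 2 or 3 or 2i replicate 1 or 2 (adjusted p 0.0113 to 0.0178), and its change in CH against DMSO missed the threshold (log2 -1.49 ± 0.45, adjusted p = 0.02, and 3.43e-05 with the replicate block, where it is called). Per kilobase of exon, Podxl made up 98.3% ± 0.77 (SD, n = 3) of the summed level of the 3 genes in DMSO and from 83.7% to 91.5% in the 2i libraries.

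Prom1, the pentaspan protein of microvilli (ENSMUSG00000029086, chr5:43993620-44102032, minus strand), was uneven between replicates. Its levels were 83.0, 44.8 and 47.5 CPM in DMSO, 55.6, 34.5 and 31.8 in Fgf2/Activin, 35.9, 28.2 and 25.0 in CH and 41.2, 23.8 and 24.2 in 2i. Replicate 1 was the highest in each of these 4 groups, and of the 4 wild-type comparisons CH against DMSO was the one without overlap. The log2 fold change in CH against DMSO was -0.99 ± 0.31 (adjusted p = 0.0226), and with the replicate block -0.95 (adjusted p = 6.97e-06), short of a log2 fold change of 1 in both. Between 2i and CH it was -0.0013 ± 0.31, with a 95% interval from -0.67 to 0.67. In the Esrrb cells the direction was the other way: 37.6, 47.5 and 50.4 CPM in Esrrb NT and 61.3, 72.7 and 70.1 CPM in Esrrb 4OHT, with no overlap. Prom1 rose 1.49-fold there by the adjusted p alone (log2 0.58 ± 0.11, adjusted p = 0.00185). An antisense gene, Gm16401, shares 5.91% of the exon bases of Prom1 and had at most 11 counts in any library, and reads were counted without strand.

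Its paralogue Prom2 was near 0 in CH and at 0 in 2i. Prom2 had 156 to 390 counts in the DMSO libraries, 142 to 233 in Fgf2/Activin, 1 to 3 in CH and 0 in each 2i library. The ratio of summed counts was 127.0-fold lower in CH than in DMSO, with an exact 95% counting interval from 54.1 to 392 (edgeR adjusted p = 5.93e-06). In 2i it was at least 58.6-fold lower than in Fgf2/Activin, with 3 counts per library as the floor (adjusted p = 2.38e-06). Esrrb NT and Esrrb 4OHT libraries had at most 2 counts, so Prom2 stayed near 0 where Prom1 rose. Of the prominin level per kilobase, Prom1 made up 85.3% ± 0.28 in DMSO, 83.5% ± 1.98 in Fgf2/Activin and at least 99.6% in every CH, 2i and Esrrb library.

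Ezrin, which links membrane proteins to actin in microvilli (Ezr, ENSMUSG00000052397, chr17:6738041-6782784, minus strand), moved less but with little spread. It measured 378, 364 and 383 CPM in DMSO, 310.0, 312 and 299.5 in Fgf2/Activin, 204, 222 and 223 in CH and 263, 251 and 238 in 2i. None of the 4 groups overlapped with its neighbour in the order DMSO, Fgf2/Activin, 2i and CH. By the adjusted p alone Ezr fell 1.76-fold in CH (log2 -0.81 ± 0.06, adjusted p = 1.84e-06) and 1.23-fold in 2i against Fgf2/Activin (log2 -0.30 ± 0.06, adjusted p = 0.00135, which becomes 0.0104 without 2i replicate 3). The higher level in 2i than in CH did not pass (log2 0.21 ± 0.06, adjusted p = 0.053). Esrrb NT had 205, 246 and 252 CPM and Esrrb 4OHT 162, 185 and 169 CPM, again without overlap. Ezr fell 1.38-fold there (log2 -0.46 ± 0.08, adjusted p = 0.00122), in the opposite direction to Cgn and Prom1.

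Radixin (Rdx) and moesin (Msn), the other 2 members of the ERM family, did not follow ezrin down in CH. Their log2 fold changes in CH against DMSO were 0.04 ± 0.09 and 0.05 ± 0.10, with 95% intervals from -0.15 to 0.24 and from -0.18 to 0.28. Ezr therefore made up 52.5% ± 1.79 (SD, n = 3) of the ERM level per kilobase in DMSO and 37.9% ± 1.31 in CH, and the shares of the single libraries, 51.4% to 54.6% and 37.0% to 39.4%, did not overlap. In the Esrrb cells the share was 41.4% ± 1.62 in Esrrb NT and 32.7% ± 0.88 in Esrrb 4OHT, also without overlap, where Msn measured log2 0.15 ± 0.05 (adjusted p = 0.0257) and Rdx 0.03 ± 0.06 (adjusted p = 0.618).

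NHERF1 (Slc9a3r1, ENSMUSG00000020733, chr11:115163341-115181181, plus strand) was, per kilobase of exon, the most abundant of the 10 transcripts in DMSO at 125.0 ± 11.3 CPM per kb. In CPM it had 224, 232 and 265 in DMSO, 186, 215 and 219.5 in Fgf2/Activin, 103, 164 and 159 in CH and 92.2, 155 and 149.8 in 2i. Replicate 1 was the lowest of its group in all 4, and CH did not overlap with DMSO. The log2 fold change in CH was -0.78 ± 0.21 (adjusted p = 0.0104, and 0.000144 with the replicate block) and in 2i against Fgf2/Activin -0.65 ± 0.21 (adjusted p = 0.0209, and 0.000372 with the block). In Esrrb NT the libraries lay at 181, 182 and 180.4 CPM and in Esrrb 4OHT at 154, 136 and 135, and Slc9a3r1 fell 1.29-fold by the adjusted p alone (log2 -0.37 ± 0.06, adjusted p = 0.000766).

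NHERF2 (Slc9a3r2, ENSMUSG00000002504, chr17:24639286-24650327, minus strand) stood apart from the others in 2i. It measured 16.2, 13.2 and 14.3 CPM in DMSO, 9.37, 10.2 and 8.08 in Fgf2/Activin, 9.44, 8.66 and 10.2 in CH and 16.7, 15.8 and 15.9 in 2i. So DMSO and 2i were high, Fgf2/Activin and CH were low, and no high group overlapped with a low one. By the adjusted p alone Slc9a3r2 fell 1.57-fold in CH against DMSO (log2 -0.65 ± 0.13, adjusted p = 0.00173). It rose 1.74-fold in 2i against Fgf2/Activin (log2 0.80 ± 0.13, adjusted p = 0.000293). Against CH the rise was 1.71-fold (log2 0.78 ± 0.13, adjusted p = 0.00373), which passed 0.01 by a margin that was lost when any 1 of the 6 CH and 2i libraries was left out (adjusted p 0.0103 to 0.0223). It was also lower in Fgf2/Activin than in DMSO (log2 -0.67 ± 0.13, adjusted p = 0.0112, and 0.00287 with the replicate block). In the Esrrb cells the values were 15.6, 9.97 and 9.64 CPM against 8.92, 8.06 and 9.29 CPM, a log2 fold change of -0.44 ± 0.19 (adjusted p = 0.0791) that became -0.18 without Esrrb NT replicate 1. Slc9a3r2 remained the minor scaffold, at 4.24% ± 0.66 of the NHERF level per kilobase in DMSO and 8.56% ± 2.67 in 2i.

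**Figure D2:**
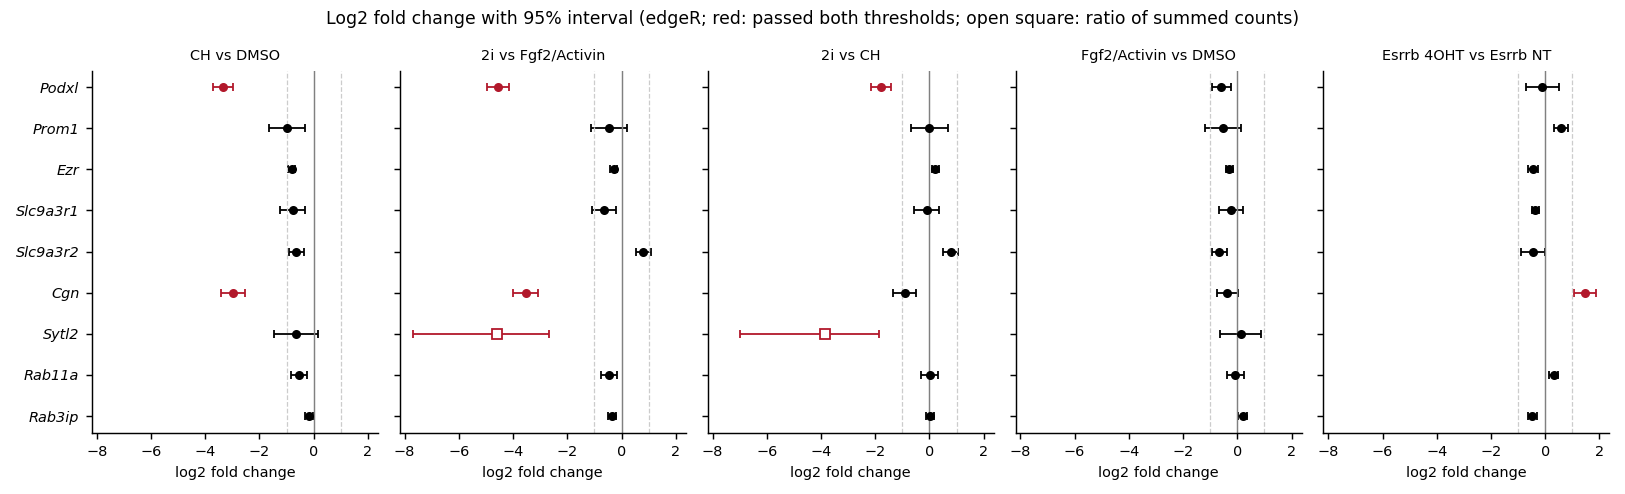
Log2 fold change (horizontal axis) with its 95% interval for 9 of the 10 genes in the 5 comparisons, red where both thresholds were passed and dashed lines at a log2 fold change of 1; the open squares for Sytl2 are ratios of summed counts with their counting interval. Podxl and Cgn lay far to the left in CH against DMSO and in 2i against Fgf2/Activin, and in the Esrrb comparison Cgn alone passed both thresholds.

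Cingulin (Cgn, ENSMUSG00000068876, chr3:94760069-94786492, minus strand) passed both thresholds in both cell lines. It had 146, 91.2 and 99.5 CPM in DMSO and 105, 77.2 and 80.8 in Fgf2/Activin, where the groups overlapped. It was at 16.4, 14.6 and 11.9 CPM in CH and 7.87, 6.99 and 7.91 in 2i. Cgn fell 7.93-fold in CH (log2 -2.99 ± 0.20, adjusted p = 1.06e-06) and 11.6-fold in 2i against Fgf2/Activin (log2 -3.54 ± 0.21, adjusted p = 2.25e-07). The step from CH to 2i was a log2 fold change of -0.92 ± 0.20 with no overlap (adjusted p = 0.0168, and 0.000577 with the replicate block), under the fold threshold. Esrrb NT libraries had 12.8, 19.2 and 19.0 CPM and Esrrb 4OHT libraries 58.8, 40.0 and 43.6 CPM, so every treated library was above every untreated one. Cgn rose 2.76-fold (log2 1.47 ± 0.18, adjusted p = 0.000204), and without replicate 1 of both groups the log2 fold change was 1.11 (adjusted p = 1.95e-12). That last adjusted p rests on replicates 2 and 3 alone, which differed little (chi-square per gene 1.46 in Esrrb NT and 2.22 in Esrrb 4OHT). It is no stronger evidence than the fit of all libraries. A test against a minimum log2 fold change of 1, rather than against no change, gave an adjusted p of 0.0426. A pseudogene, BC021767, matches 34.6% of the longest Cgn transcript and had 2 to 50 counts per library, so reads between them could be misplaced.

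Cgnl1, which encodes the paralogue paracingulin of the same junction plaque, fell with Cgn in CH and parted from it in the Esrrb cells. Its level was 75.1, 133 and 160.5 CPM in DMSO and 18.5, 30.0 and 25.2 in CH, 5.08-fold lower (log2 -2.34 ± 0.40, adjusted p = 0.000741). In Esrrb 4OHT it was 13.1, 23.9 and 20.0 CPM, under the 25.1, 41.0 and 37.1 CPM of Esrrb NT (log2 -0.87 ± 0.23, adjusted p = 0.0101, and 3.25e-07 with the replicate block). The share of Cgn in the cingulin level per kilobase was 39.2% ± 1.15 in Esrrb NT and 76.0% ± 8.62 in Esrrb 4OHT, and the single libraries, 37.9% to 40.0% and 68.5% to 85.4%, did not overlap. The sum of both genes rose less, from 7.21 ± 1.66 to 10.3 ± 0.98 CPM per kb. In DMSO it was 34.3 ± 2.46 CPM per kb and in CH 5.50 ± 0.64.

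Rab11a and Rab3ip, the upstream vesicle machinery, stayed within a log2 fold change of 1 in every comparison. Rab11a, the recycling endosome GTPase (ENSMUSG00000004771, chr9:64715299-64737758, minus strand), had 61.2, 52.1 and 50.2 CPM in DMSO, 55.0, 53.2 and 48.6 in Fgf2/Activin, 45.8, 32.3 and 35.9 in CH and 44.0, 36.5 and 34.2 in 2i. CH and 2i lay below DMSO and Fgf2/Activin without overlap. By the adjusted p alone Rab11a fell 1.45-fold in CH against DMSO (log2 -0.54 ± 0.14, adjusted p = 0.00925). That call was lost without any 1 of the 3 DMSO libraries, CH replicate 2 or CH replicate 3, with adjusted p from 0.0143 to 0.0446, and the replicate block gave 0.000111. In Esrrb 4OHT it was higher, at 40.8, 36.2 and 36.5 CPM against 31.5, 30.0 and 29.4 in Esrrb NT (1.24-fold, log2 0.30 ± 0.08, adjusted p = 0.0076). Leaving out any library but Esrrb NT replicate 1 moved that adjusted p to between 0.015 and 0.0402, and the block gave 0.000658.

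Inside the Rab11 family the largest change in CH lay in Rab25, the epithelial member also called Rab11c, beside the smaller fall of Rab11a given above. Rab25 had 50.8, 36.2 and 34.3 CPM in DMSO and 5.37, 1.58 and 1.46 in CH, with replicate 1 the highest in both groups, and it fell 14.5-fold (log2 -3.86 ± 0.65, adjusted p = 0.000691), or 26.8-fold without CH replicate 1. In 2i against Fgf2/Activin it fell 9.42-fold (log2 -3.24 ± 0.62, adjusted p = 0.00122), or 20.1-fold without 2i replicate 1. It fell again in Esrrb 4OHT, 2.23-fold (log2 -1.16 ± 0.19, adjusted p = 0.000776), from 3.30, 4.63 and 3.96 CPM to 1.87, 1.85 and 1.66 CPM. Rab11b stood between 70.0 and 94.2 CPM in every library, and its log2 fold change in CH against DMSO was 0.02 ± 0.11 (95% interval -0.23 to 0.27). Per kilobase, Rab25 was 42.9% ± 4.40 of the family in DMSO and 5.78% ± 4.28 in CH, and the family's sum was 55.9 ± 6.48 and 28.3 ± 1.47 CPM per kb.

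**Figure D3:**
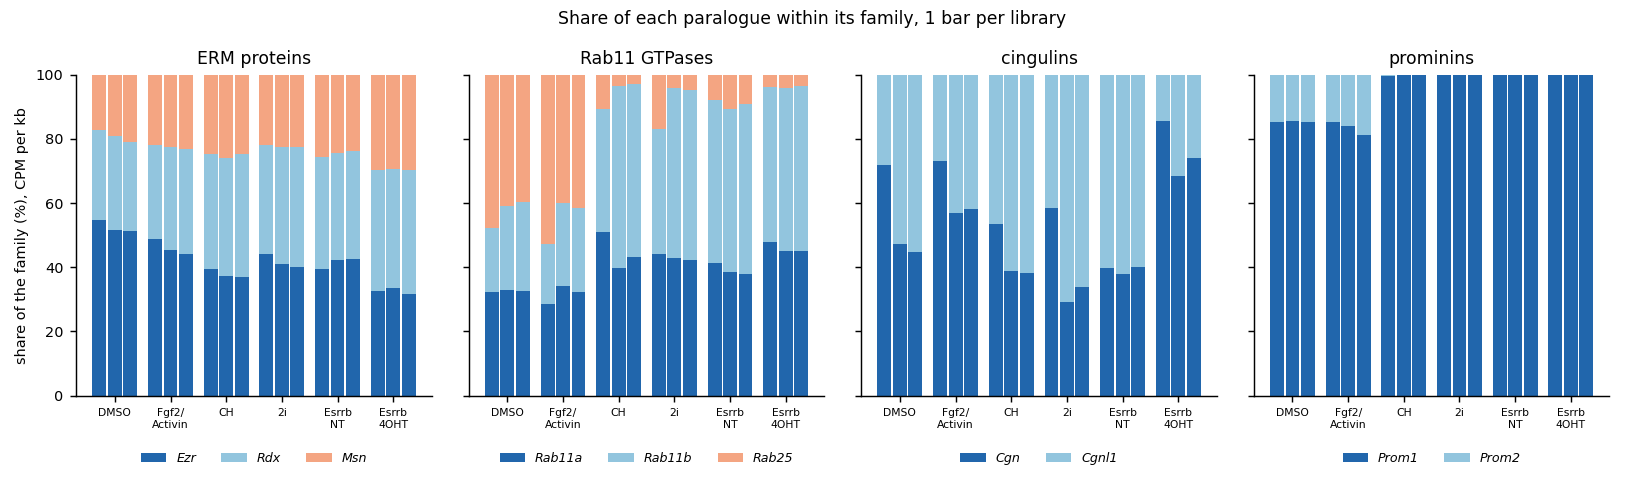
Share of each paralogue in its family's summed level (vertical axis, percent, from CPM per kb), with 1 stacked bar per library and 3 libraries per group. Ezr took a smaller share in CH (37.0% to 39.4%) than in DMSO (51.4% to 54.6%), Rab25 and Prom2 shrank in CH and 2i, and Cgn had its largest mean share in Esrrb 4OHT (76.0%, with libraries from 68.5% to 85.4% that overlapped with those of DMSO and Fgf2/Activin).

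Rabin8, the Rab8 exchange factor (Rab3ip, ENSMUSG00000064181, chr10:116905784-116950769, minus strand), had, as a ratio of its highest to its lowest library, the narrowest range in wild-type cells of the 8 genes above 1 CPM, from 40.6 to 56.7 CPM. It measured 49.5, 49.0 and 46.3 CPM in DMSO, 56.7, 55.2 and 54.6 in Fgf2/Activin, 40.6, 43.4 and 45.7 in CH and 42.3, 45.6 and 43.9 in 2i. The log2 fold change in CH was -0.18 ± 0.07 (adjusted p = 0.0604), and in 2i against Fgf2/Activin it fell 1.27-fold by the adjusted p alone (log2 -0.34 ± 0.07, adjusted p = 0.00162). In the Esrrb cells it fell from 31.3, 34.0 and 31.5 CPM to 22.7, 24.7 and 23.0 CPM with no overlap (1.39-fold, log2 -0.48 ± 0.07, adjusted p = 0.000591). Its paralogue Rab3il1, another Rab exchange factor, went the other way there, from 0.52, 0.76 and 1.01 CPM to 1.87, 1.38 and 1.28 CPM, without passing (log2 0.96 ± 0.29, adjusted p = 0.0205).

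Sytl2 and Rab27b, the tether and its GTPase, were near the limit of detection. Sytl2 (ENSMUSG00000030616, chr7:90302252-90410719, plus strand) had 15, 13 and 17 counts in the DMSO libraries, 14, 16 and 18 in Fgf2/Activin, 9, 11 and 6 in CH and 0, 1 and 1 in 2i. The ratio of summed counts was 24.5-fold lower in 2i than in Fgf2/Activin, with an exact 95% counting interval from 6.41 to 208, and edgeR's test gave an adjusted p of 4.9e-05. Against CH the ratio was 14.5-fold, with an interval from 3.62 to 126 (adjusted p = 0.00347). That call was lost when CH replicate 1, CH replicate 2 or any 1 of the 2i libraries was left out, with adjusted p from 0.0101 to 0.0171. The lower value in CH than in DMSO did not pass (log2 -0.66 ± 0.36, adjusted p = 0.17). In the Esrrb libraries, where Sytl2 was too low to be tested, there were 1, 2 and 2 counts in Esrrb NT and 4, 8 and 7 in Esrrb 4OHT, a ratio of 3.55 with a counting interval from 1.28 to 12.2. These counting intervals cover counting error only.

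Rab27b (ENSMUSG00000024511, on chromosome 18) was at 0 in all 3 DMSO libraries and had at most 7 counts in any of the 18, so it passed no filter and was not tested. It had 0, 0 and 2 counts in Fgf2/Activin, 5, 0 and 1 in CH and 0, 0 and 1 in 2i. The highest count was in Esrrb 4OHT, with 2, 3 and 7 counts, against 0, 1 and 1 in Esrrb NT, a ratio of 5.61 with a counting interval from 1.25 to 51.6. Rab27a, its paralogue, carried at least 98.5% of the Rab27 level per kilobase in every library. Rab27a fell 2.31-fold in CH against DMSO, from 14.5, 19.4 and 16.0 CPM to 7.58, 6.52 and 7.75 CPM (log2 -1.21 ± 0.14, adjusted p = 4.59e-05). Among the other synaptotagmin-like effectors, Sytl1 fell 4.57-fold in 2i against Fgf2/Activin (log2 -2.19 ± 0.55, adjusted p = 0.00612), a call lost without any 1 of those libraries but 2i replicate 1 (adjusted p 0.0133 to 0.0295). It rose 4.84-fold in Esrrb 4OHT (log2 2.28 ± 0.14, adjusted p = 6.74e-06), from 3.05, 3.07 and 2.69 CPM to 16.2, 12.7 and 14.4 CPM. Sytl4 rose 3.29-fold in Esrrb 4OHT (log2 1.72 ± 0.28, adjusted p = 0.000868) to 1.63, 1.23 and 1.75 CPM. Sytl3 rose 3.47-fold in 2i against Fgf2/Activin (log2 1.80 ± 0.26, adjusted p = 0.000178).

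Compared per kilobase of exon, the 10 transcripts were ordered Slc9a3r1 (125.0 ± 11.3), Ezr (114 ± 2.97), Podxl (74.7 ± 12.7), Cgn (18.6 ± 4.90), Rab11a (18.2 ± 1.97), Rab3ip (15.2 ± 0.53), Prom1 (8.14 ± 2.97) and Slc9a3r2 (5.50 ± 0.58) in DMSO, in CPM per kb ± SD with n = 3, with Sytl2 and Rab27b under 0.04. The libraries of Cgn overlapped with those of Rab11a and of Rab3ip, and Slc9a3r1 and Ezr differed by no more than the SD of Slc9a3r1. In 2i Ezr (76.3 ± 3.73) and Slc9a3r1 (68.7 ± 18.1) still led, while Podxl stood seventh at 2.14 ± 0.34 and Cgn eighth at 1.26 ± 0.09. The length used is that of all annotated exons of a gene merged, which can exceed any single transcript. For Prom1 it is 7175 bases, against 4089 in its longest transcript, so the order and the family shares per kilobase are approximate. These are levels of transcript and not of protein.

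The other genes of the pathway were taken from 5 lists holding 72 matched genes: paralogues of the 10, Rab GTPases and their effectors, exocyst subunits, proteins of apical fusion and sorting, and kinases, PDZ partners and microvillus proteins around the ERM family. In CH against DMSO, 65 were tested and 20 changed, 7 higher and 13 lower, where 17.7% of all genes changed, 7.51% higher and 10.2% lower. The median log2 fold change over the 65 was -0.33. Of the 12 paralogues tested 4 fell (Prom2, Cgnl1, Rab25 and Rab27a) and none rose. With the replicate block 7 of the 12 fell, adding Cd34, Rab3il1 (log2 -1.33, adjusted p = 0.00171) and Sytl1 (log2 -1.86, adjusted p = 0.00015). Over all 65 genes the block gave 25, 7 higher and 18 lower, where the 2 others added were Vil1 (log2 -1.86, adjusted p = 0.000749), the microvillus protein villin, and Plekhg6 (log2 -1.11, adjusted p = 0.00955). The share of all genes past both thresholds with the block is not given here, so the block counts of pathway genes have no background beside them. In the Rab list 4 of 20 fell and 1 rose, in the ERM and microvillus list 3 of 13 fell and 3 rose, and in the fusion and sorting list 2 of 11 fell and 2 rose.

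The named genes with the largest changes in CH took both directions. Espin (Espn), a bundler of microvillus actin, fell 7.90-fold (log2 -2.98 ± 0.26, adjusted p = 6.75e-06) and Mal2, a protein of apical transcytosis, 6.06-fold (log2 -2.60 ± 0.61, adjusted p = 0.00562). Mal2 had 17.5, 8.77 and 9.93 CPM in DMSO and 4.03, 1.15 and 0.81 in CH. Its fold was 12.3 without CH replicate 1, and the call was lost without DMSO replicate 1 or 3 or CH replicate 2 or 3 (adjusted p 0.0107 to 0.0267). Rab3b, a secretory Rab, fell 5.61-fold (adjusted p = 8.25e-05) and Anpep, an apical peptidase, 4.76-fold (adjusted p = 1.19e-06). Myo1a, the brush border myosin, rose 9.42-fold (log2 3.24 ± 0.28, adjusted p = 5.87e-06), from 0.43 to 0.50 CPM in DMSO to 3.41 to 5.15 in CH. The exocyst, the complex that tethers vesicles to the membrane, was represented by 9 subunits, of which 8 did not pass both thresholds and 1, Exoc6b, named here after its value was seen, rose 2.84-fold (adjusted p = 2.01e-05).

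In 2i against Fgf2/Activin, 21 of the 65 changed, 7 higher and 14 lower, with a median log2 fold change of -0.16, where 23.5% of all genes changed. The replicate block gave 24, 8 higher and 16 lower, adding Rab3il1 (log2 -1.97) and Vil1 (log2 -2.23) lower and Pdzk1 (log2 1.88) higher. Myo1a rose 23.2-fold there (log2 4.54 ± 0.28, adjusted p = 3.46e-07) and Rab11fip5, a Rab11 effector, 5.46-fold (log2 2.45 ± 0.41, adjusted p = 0.000473). Mal2 fell 15.4-fold (adjusted p = 0.000482, and 26.5-fold without 2i replicate 1), Espn 9.23-fold (adjusted p = 2.31e-06), Rab3b 7.87-fold (adjusted p = 1.66e-05) and Myo5a, a vesicle motor, 6.53-fold (adjusted p = 4.63e-06). In 2i against CH 1 of the 65 (1.54%) changed by edgeR, where 1.99% of all genes changed. Myo1a rose 2.43-fold (log2 1.28 ± 0.24, adjusted p = 0.00759), a call that was lost when any 1 of the 6 CH and 2i libraries was left out. The replicate block gave 2 there, adding Cftr, an apical chloride channel, which fell (log2 -1.16 ± 0.22, adjusted p = 0.00427). In Fgf2/Activin against DMSO edgeR called 0 of 65 and DESeq2 0, where 1.25% of all genes changed by edgeR. There 9 of the 65 (13.8%) had an unadjusted p under 0.05, against 16.9% of all genes.

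**Figure D4:**
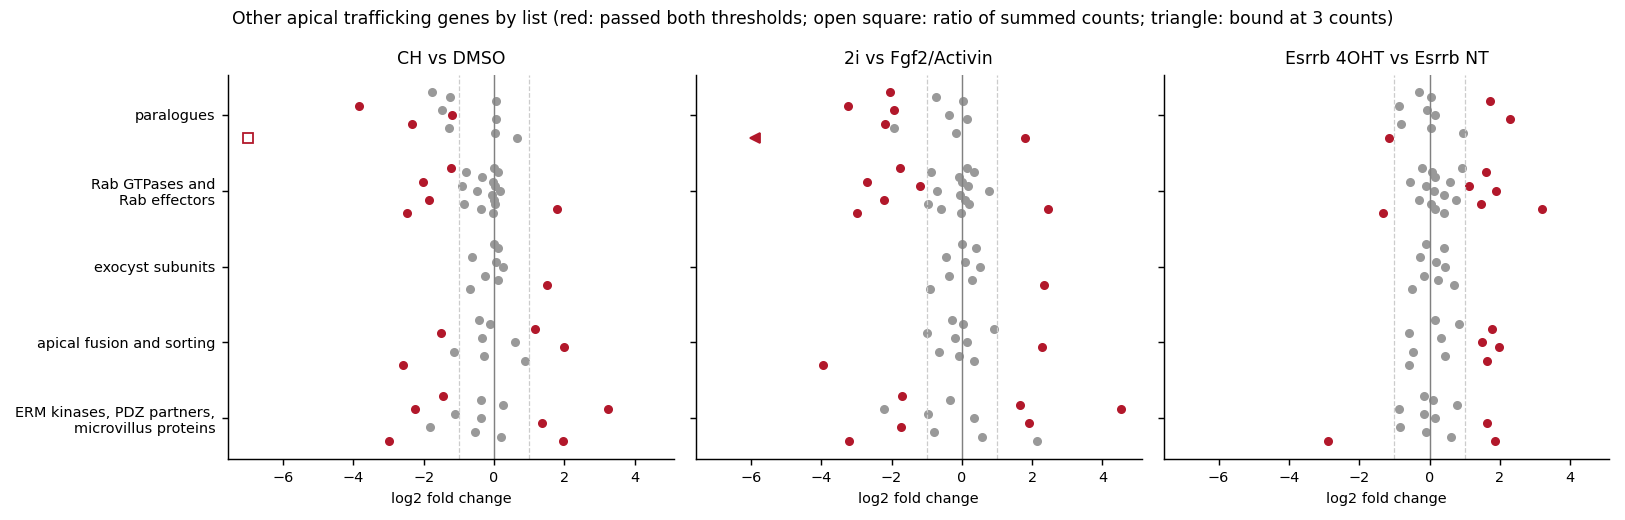
Log2 fold change (horizontal axis) of the tested genes of the 5 pathway lists in 3 comparisons, 1 point per gene, red where both thresholds were passed, with an open square for a ratio of summed counts and a triangle for a bound at 3 counts per library. In CH against DMSO 13 of the 20 changed genes fell, and in the Esrrb comparison 13 of the 16 rose. Of all genes that changed, 1674 of 2907 fell in the former and 1909 of 2485 rose in the latter.

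In Esrrb 4OHT against Esrrb NT, 16 of 63 tested genes changed, 13 higher and 3 lower, where 16.7% of all genes changed and 12.8% rose. The median log2 fold change was 0.16. In the fusion and sorting list 4 of 11 rose and none fell, in the Rab list 5 of 20 rose and 1 fell, and no exocyst subunit passed both thresholds. Rab3b rose 9.22-fold (log2 3.20 ± 0.22, adjusted p = 1.08e-05), Anxa2, an annexin of apical membranes, 3.89-fold (log2 1.96 ± 0.30, adjusted p = 0.000602) and Micall1, an effector of recycling endosomes, 3.72-fold (log2 1.89 ± 0.15, adjusted p = 1.7e-05). Pdzk1, a PDZ scaffold related to the NHERF proteins, rose 3.63-fold (adjusted p = 1.81e-05) and Mal2 3.43-fold (adjusted p = 0.000998). The values of Pdzk1 and Micall1 are uncertain, since genes on the opposite strand overlap 41.7% and 26.7% of their exon bases and counting without strand cannot tell the reads apart. The log2 fold change of Anxa2 was 1.35 without replicate 1 of both groups. Dpp4, an apical peptidase, fell 7.44-fold (log2 -2.89 ± 0.22, adjusted p = 1.58e-05). Summed mesendoderm markers were higher alongside, as given above, and summed primitive and visceral endoderm markers ran from 3.38 to 5.43 CPM in Esrrb NT and from 8.73 to 11.2 in Esrrb 4OHT, with 5 of 12 above 1 CPM against 2 of 12. The endoderm markers did not move as one list. Sox7 fell from between 0.81 and 1.39 CPM in Esrrb NT to between 0.048 and 0.19 in Esrrb 4OHT. Gata6, Afp and Apoa1 overlapped, Ttr was at 0, and the others were higher in every Esrrb 4OHT library. The part of these lineages in the changes was not tested.

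The genes whose pattern over the 18 libraries lay closest to that of Podxl were found among 14534 other genes tested in both cell lines, by the root mean square difference of centred log2 CPM. The closest 5 were Trio (difference 0.378), Vwa2 (0.424), Tcfl5 (0.454), Slc23a1, a vitamin C transporter (0.472), and Cacng8 (0.472). Trio went from a mean of 197 CPM in DMSO and 181.5 in Fgf2/Activin to 19.2 in CH and 4.95 in 2i. Between Esrrb NT and Esrrb 4OHT, where the Podxl libraries overlapped, the closest genes differed in direction. The means there were 31.8 and 48.4 CPM for Trio, 0.93 and 2.08 for Vwa2 and 0.54 and 0.68 for Cacng8. For Tcfl5 they were 10.6 and 10.1, and for Slc23a1 5.8 and 3.58. Of the other 7 members tested in both lines, Cgn ranked 36 (0.675), and Slc9a3r1, the next, ranked 1705 (1.45).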

How the data were processed

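RNA-seq of 18 libraries in 6 groups was used as raw gene counts, which the authors made by aligning to GRCm38/mm10 with TopHat2 and counting with HTSeq, per the labels, without regard to strand, per the study's methods; the Ensembl release is not given in the sources used here. Symbols and exon lengths, the latter over all annotated exons of a gene merged, came from GENCODE vM21. Counts were tested with edgeR 4.0.16 (R 4.3.3; TMM, filterByExpr, quasi-likelihood F test, Benjamini-Hochberg adjustment), with the 12 wild-type libraries in one fit (16413 genes) and the 6 Esrrb libraries in another (14893 genes). Printed CPM use TMM over all 18 libraries. SE were derived from the F statistic, and scripts were tested on simulated data. DESeq2 1.42.0 was an alternative, and sequence matches were sought with blastn 2.17.0 (95% identity over at least 75 bases).

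The members and gene lists were chosen with earlier results of these data known. Named genes were all 10 members, paralogues beside their member, the pathway genes that passed both thresholds, at most the 8 with the largest change per comparison, and the 5 genes closest to Podxl. The alternatives were another normalisation, filter, test, fold threshold, sample set and a replicate block. Replicate numbers come from the labels, and deviations of same-numbered libraries correlated in every pair (r = 0.382 to 0.84 over genes with a mean count of at least 100). The main fits held no term for the replicate number. Printed fold changes and adjusted p therefore ignore this pairing, except where the block is named.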

Additional observations from a re-analysis of the deposited data

How the results depend on the processing

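The fall of Podxl and Cgn in CH against DMSO and in 2i against Fgf2/Activin, and that of Sytl2 in the latter, held under each alternative run that could test them. The replicate block changed no other call of the members, and among pathway genes it gave 25 in place of 20 in CH against DMSO, 24 in place of 21 in 2i against Fgf2/Activin and 2 in place of 1 in 2i against CH. In 2i against CH the count of members was 1 with at least 10 counts in every sample, where Sytl2 is not tested, 1 with only the 6 samples compared, 0 when tested against a log2 fold change of 1 (glmTreat) and 1 to 2 with libraries left out. Pathway genes there numbered 2 by DESeq2, which called 597 of all 16413 genes, and 2 with no minimum fold (2.83% of all genes). They numbered 0 by glmTreat, 0 with only the 6 samples and 0 to 1 with libraries left out. By glmTreat, pathway genes numbered 10 in CH against DMSO and 7 in the Esrrb comparison, and members 0 in the latter. With no minimum fold, members numbered 5 of 9 in CH against DMSO (28.9% of all genes) and 6 of 9 in 2i against Fgf2/Activin (37.7%). In the Esrrb comparison they numbered 6 of 8, and pathway genes 33 of 63, where 44.5% of all genes passed. The shares of all genes by glmTreat, with other sample sets or filters and with libraries left out are not given here. Those counts therefore have no background beside them. Leaving out replicate 1 of every group together, an alternative chosen after seeing the data, left the counts of members at 2, 3, 2, 0 and 1 in the order CH against DMSO, 2i against Fgf2/Activin, 2i against CH, Fgf2/Activin against DMSO and the Esrrb comparison, and pathway genes in Fgf2/Activin against DMSO numbered 0 to 1 over all fits with libraries left out. Only values near 0 changed sign. In 2i against CH, Prom1 measured 0.00086 with DESeq2 size factors and 0.0020 by DESeq2, and Rab11a -0.0054 with at least 10 counts and -0.0031 with only the 6 samples. With libraries left out, Prom1 ran from -0.31 to 0.16, Rab11a from -0.10 to 0.16, Slc9a3r1 from -0.29 to 0.10 and Rab3ip from -0.021 to 0.057 in 2i against CH, Sytl2 from -0.028 to 0.37 and Rab11a from -0.13 to 0.013 in Fgf2/Activin against DMSO, and Podxl from -0.36 to 0.10 in the Esrrb comparison. The cause of these shifts was not tested. Depth limits Sytl2 and Rab27b, where 3 counts in a library are about 0.1 CPM.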

Other observations

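Ratios between members inside each library do not depend on the normalisation between libraries. Per kilobase of exon, ezrin transcripts stood at 1.55 ± 0.25 (SD, n = 3) for each Podxl transcript in DMSO, 1.90 ± 0.29 in Fgf2/Activin, 8.92 ± 0.15 in CH and 36.5 ± 8.07 in 2i, and the ranges of the single libraries in CH (8.78 to 9.08) and 2i (30.7 to 45.7) did not overlap with each other or with DMSO (1.29 to 1.79). The ratio of Slc9a3r1 to Podxl went from 1.72 ± 0.40 in DMSO to 9.96 ± 1.93 in CH and 31.7 ± 3.90 in 2i.

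Podxl and Cgn, which fell together in wild-type cells, came apart in the Esrrb cells. Podxl stood at 4.31 ± 0.62 for each Cgn transcript per kilobase in Esrrb NT and 1.57 ± 0.67 in Esrrb 4OHT, with single libraries from 3.61 to 4.76 and from 0.81 to 2.08. The mean log2 ratio in CPM was 1.96 and 0.40, a difference of -1.56, and an exact two-sided permutation test gave p = 0.1, the smallest that 3 libraries against 3 allow. This pattern was seen in the data before it was tested. With ranges that do not overlap, the test could give no other value, so it adds nothing to those ranges.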
